A study of Sus scrofa with 2 samples.

Results

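Troponin and tropomyosin form the calcium switch of the thin filament, and 8 genes that encode their main skeletal muscle isoforms are described here out of 31780 genes in the feature list. They were taken by symbol: the slow isoforms TNNT1, TNNI1, TNNC1 and TPM3, and the fast isoforms TNNT3, TNNI2, TNNC2 and TPM1. All 8 were present in both libraries and all 8 passed the filter on low counts. Spatial transcriptomes (10x Visium) were taken from cryosections of the psoas major, a loin muscle, of female Landrace pigs, with no treatment given in the labels. The labels give 2 pigs and 2 libraries, section 1 and section 2, on separate capture areas of the same slide, but not which pig gave which section and no age. Both libraries belong to a single group with no control, and classes of spots were therefore compared inside each section. How many fibres lay under a spot was not measured here, and a spot may hold more than 1 fibre and other tissue. The libraries had 2487 spots (section 1) and 2939 spots (section 2) and totals of 3633249 and 5382677 unique molecular identifiers (UMIs, each marking 1 captured RNA molecule). Filters left 2430 and 2878 of these, in which the median spot had 928.5 and 1350.5 UMIs. The 8 genes took 7.25% and 7.46% of the UMIs of the kept spots. The sections shared 2104 spot barcodes, which encode positions on the slide.

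In resting muscle, tropomyosin, a coiled coil that lies along actin, covers the sites to which myosin binds. Troponin holds it there: troponin C binds calcium, troponin I inhibits the binding of myosin, and troponin T ties the complex to tropomyosin. Calcium released from the sarcoplasmic reticulum moves the complex and lets myosin bind. Slow and fast fibres use separate genes for each troponin subunit, and slow fibres make TPM3 where fast fibres make TPM1, while TPM2 is made in both. TNNC1 is also the troponin C of the heart, TPM1 is also made by smooth muscle and heart, and TPM3 also encodes forms made outside muscle.

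The members lie on 7 chromosomes of Sscrofa11.1, with TNNI2 and TNNT3 on the same one. TNNT1 lies at chr6:59351445-59365584, TNNI1 at chr10:23788279-23800554, TNNC1 at chr13:34591571-34594320 and TPM3 at chr4:95542329-95572946. TNNT3 lies at chr2:1297826-1316865, TNNI2 at chr2:1251566-1253883, TNNC2 at chr17:48025621-48026762 and TPM1 at chr1:108986981-109016090. Vertebrate troponin I and troponin T genes sit in neighbouring pairs, and so they do here: 43942 bases separate TNNI2 from TNNT3, 1243 bases separate TNNT1 from the cardiac troponin I gene TNNI3, and 28582 bases separate TNNI1 from the cardiac troponin T gene TNNT2.

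The starts of both troponin T genes and of TNNC1 are shown because troponin T had the largest slow to fast difference of the troponins and because TNNC1 was the only member with an MCAT motif. Each sequence runs 5′ to 3′ on the gene's strand, with 250 bases before and 50 bases after the start shared by the largest number of RefSeq transcripts of the gene on Sscrofa11.1 (chr6:59365236-59365535, minus strand, for TNNT1, chr2:1299112-1299411, plus strand, for TNNT3 and chr13:34594271-34594570, minus strand, for TNNC1). Capitals mark an E-box (CANNTG, the core that myogenic factors bind) in TNNT1 and TNNT3, and the MCAT motif (CATTCC, read on either strand, here on the opposite one) in TNNC1.
TNNT1: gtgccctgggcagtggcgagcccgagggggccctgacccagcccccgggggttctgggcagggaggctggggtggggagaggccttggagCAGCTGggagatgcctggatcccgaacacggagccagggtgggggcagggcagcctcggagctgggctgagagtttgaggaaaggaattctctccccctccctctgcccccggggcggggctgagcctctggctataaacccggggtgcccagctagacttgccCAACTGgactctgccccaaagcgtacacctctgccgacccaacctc
TNNT3: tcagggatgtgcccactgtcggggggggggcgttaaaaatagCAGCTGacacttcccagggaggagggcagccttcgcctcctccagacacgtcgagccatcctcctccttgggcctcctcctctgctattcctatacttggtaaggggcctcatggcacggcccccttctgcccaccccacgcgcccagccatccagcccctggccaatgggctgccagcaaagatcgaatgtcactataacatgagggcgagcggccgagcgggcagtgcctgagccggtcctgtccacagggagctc
TNNC1: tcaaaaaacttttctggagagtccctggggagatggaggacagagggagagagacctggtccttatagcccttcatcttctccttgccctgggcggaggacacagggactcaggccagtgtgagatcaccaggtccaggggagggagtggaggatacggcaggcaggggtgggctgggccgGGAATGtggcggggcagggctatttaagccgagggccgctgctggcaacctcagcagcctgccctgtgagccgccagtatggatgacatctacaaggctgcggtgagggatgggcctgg
Such windows were also searched in all 8 members, on both strands. An E-box was present in 6 of 8, against 67.9% of 19569 promoters of protein-coding genes, so it did not set the members apart. MCAT was present in 1 of 8, against 11.6% of promoters, and TATAAA in 2 of 8, against 10.7%. For MEF2 only a narrow form of the motif, fixed to begin with C and end with G, was searched. It was present in 0 of 8, against 2.64%. Forms with other letters at these ends were not searched, so this count does not show that the members lack MEF2 sites. All these counts are matches of letters in a short window and nothing was measured on binding.

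Spots with at least 5 UMIs of the myosin heavy chain genes MYH7 (slow, type I), MYH2 (type IIA) and MYH4 (type IIB) were divided on how much of this myosin was MYH7. MYH7-dominant spots (0.75 and above) numbered 731 in section 1 and 821 in section 2, mixed spots 221 and 291, and MYH2/MYH4-dominant spots (0.5 or less) 897 and 1324. The other 581 and 442 spots fell short of this myosin count. The classes differed in depth: MYH7-dominant spots had medians of 2961 and 3598 UMIs, mixed spots 1694 and 2110, and MYH2/MYH4-dominant spots 764 and 990. Levels are therefore given in CPM, the UMIs of a gene scaled to a total of 1000000 UMIs for its class and section, and set beside UMIs per spot where the scale matters. Every spot class carried skeletal muscle markers, at 127148 and 126019 CPM in MYH7-dominant spots and 138175 and 141573 CPM in MYH2/MYH4-dominant spots. These are sums over the 6 listed genes that were present, among them MYH7, MYH2 and MYH4, which also define the classes. ACTA1, which does not define them, had 73591 and 73615 CPM in MYH7-dominant spots, against 89447 and 91756 CPM in MYH2/MYH4-dominant spots.

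The slow isoforms were 4.5 to 6.1 times higher in MYH7-dominant than in MYH2/MYH4-dominant spots, and the fast isoforms were at 0.27 to 0.31 of their level. TNNT1, slow troponin T, had 13729 and 12901 CPM in MYH7-dominant spots of sections 1 and 2, against 2439 and 2347 CPM in MYH2/MYH4-dominant spots. TNNI1, slow troponin I, had 13492 and 12303 CPM in MYH7-dominant spots, against 2758 and 2636 CPM in MYH2/MYH4-dominant spots. TNNC1, the slow and cardiac troponin C, had 14604 and 14238 CPM in MYH7-dominant spots, against 3114 and 3281 CPM in MYH2/MYH4-dominant spots. In each of these slow troponin genes the classes lay far apart and the sections close together. TPM3, slow tropomyosin, had 7419 and 6831 CPM in MYH7-dominant spots, against 1209 and 1153 CPM in MYH2/MYH4-dominant spots, the widest ratio among the 8 members.

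The fast isoforms ran the other way, and more of them stayed in slow spots of section 2 than of section 1. TNNT3, fast troponin T, had 4810 and 5662 CPM in MYH7-dominant spots, against 18792 and 19124 CPM in MYH2/MYH4-dominant spots. TNNI2, fast troponin I, had 5047 and 5986 CPM in MYH7-dominant spots, against 17282 and 18469 CPM in MYH2/MYH4-dominant spots. TNNC2, fast troponin C, had 6907 and 8240 CPM in MYH7-dominant spots, against 24660 and 25398 CPM in MYH2/MYH4-dominant spots. It was the most abundant member as a count of captured 3′ ends, in each section over all kept spots. TPM1 had 2577 and 3118 CPM in MYH7-dominant spots, against 10082 and 10590 CPM in MYH2/MYH4-dominant spots. For all 8 members mixed spots lay between the other classes, as for TNNT1 (6454 and 6500 CPM) and TNNC2 (17251 and 18350 CPM), and the sections of different classes did not overlap. Over all genes tested, 62.1% had sections that did not overlap between MYH7-dominant and MYH2/MYH4-dominant spots. That share leaves out the mixed spots. How many of all genes had mixed spots between the other classes was not counted, so this trait cannot be called particular to the members.

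**Figure D1:**
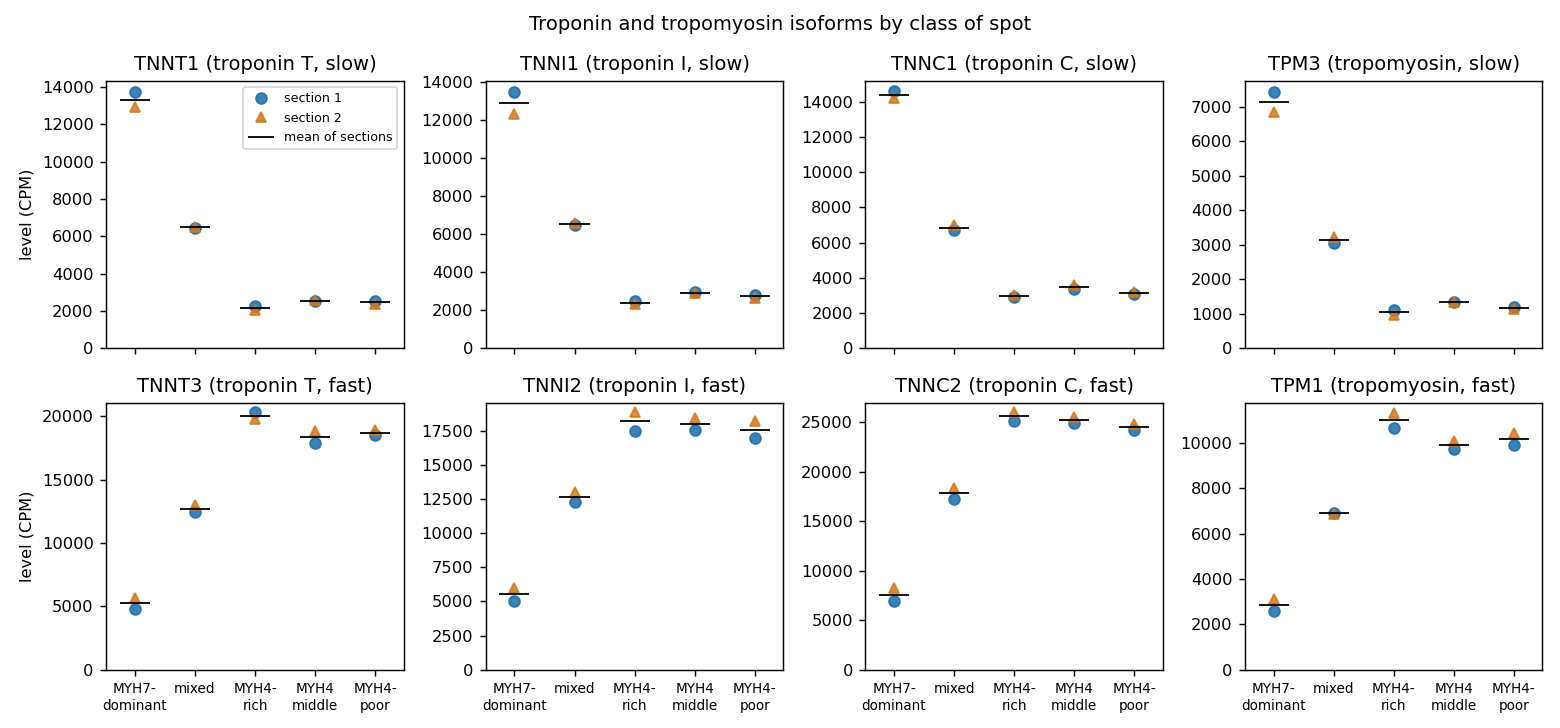
Level of each member (y axis, CPM) in 5 classes of spot (x axis). Circles are section 1, triangles section 2, and bars their mean; MYH4-rich, middle and MYH4-poor divide the MYH2/MYH4-dominant spots by their MYH4 share, MYH4-poor spots having no MYH4 UMI. The upper row (slow isoforms) is highest in MYH7-dominant spots, as TNNC1 at 14604 and 14238 CPM, and the lower row (fast isoforms) is lowest there.

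All 8 members passed the test between these classes (edgeR quasi-likelihood test on sums per section and class, Benjamini-Hochberg adjusted over 4222 genes). TPM3 had a log2 fold change of 2.61, TNNT1 of 2.49, TNNI1 of 2.27 and TNNC1 of 2.18. TNNI2 fell by 1.70, TNNC2 by 1.73, TNNT3 by 1.86 and TPM1 by 1.86 on the log2 scale. The standard errors were 0.038 to 0.045 and the edgeR adjusted p was at most 4.69e-151, which rests on a spread shared over genes with 406.7 prior degrees of freedom beside 4 residual ones. Among all genes tested, 15.9% were called higher and 14.4% lower in MYH7-dominant spots. By size, TPM3 ranked 10 and TNNT1 14 of all genes from the top, and TPM1 ranked 33 and TNNT3 34 from the bottom. Each section alone gave the same direction for all 8 members, with log2 fold changes of the slow isoforms from 2.13 (TNNC1, section 2) to 2.62 (TPM3, section 1) and of the fast isoforms from -1.97 (TPM1 and TNNT3, section 1) to -1.63 (TNNI2 and TNNC2, section 2).

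The fast isoforms were closer per spot than in CPM, and MYH7-dominant spots held more UMIs in all. TNNT3 had 14.0 and 19.99 UMIs per MYH7-dominant spot, against 18.8 and 24.1 UMIs per MYH2/MYH4-dominant spot. TNNT1 had 40.1 and 45.5 UMIs per MYH7-dominant spot, against 2.45 and 2.96 UMIs per MYH2/MYH4-dominant spot. When sums were scaled by the number of spots in place of their UMIs, the middle of the log2 fold changes over all genes moved to 1.47. On that scale TNNT1, TNNI1, TNNC1 and TPM3 had log2 fold changes of 3.98, 3.76, 3.67 and 4.10, while TNNT3, TNNI2, TNNC2 and TPM1 were still lower in MYH7-dominant spots, at -0.37, -0.21, -0.24 and -0.38. A larger number of RNA molecules per fibre and a larger area of fibre under the spot cannot be told apart in these counts.

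The share of the slow isoform within each slow and fast pair needs no scaling by the total UMIs of a class. In MYH7-dominant spots TNNT1 made up 74.1% of troponin T UMIs in section 1 (exact 95% binomial interval 73.6 to 74.5) and 69.5% in section 2 (69.1 to 69.9), against 11.5% (11.04 to 11.9) and 10.9% (10.6 to 11.3) in MYH2/MYH4-dominant spots. Intervals here cover counting error only. TNNI1 made up 72.8% and 67.3% of troponin I in MYH7-dominant spots, against 13.8% and 12.5% in MYH2/MYH4-dominant spots. TPM3 made up 74.2% and 68.7% of the tropomyosin pair in MYH7-dominant spots, against 10.7% and 9.82% in MYH2/MYH4-dominant spots. TNNC1 had the lowest share in MYH7-dominant spots, 67.9% and 63.3% of troponin C, against 11.2% and 11.4% in MYH2/MYH4-dominant spots. For each of the 4 pairs the slow share of MYH7-dominant spots was higher in section 1 than in section 2, beyond the counting intervals. The MYH7 share of these spots was higher in section 1 too, at 92.0%, against 90.5% in section 2, and its part in this difference was not tested.

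The odds of the slow over the fast isoform put the pairs in the same broad order in both sections. The log2 odds ratio between MYH7-dominant and MYH2/MYH4-dominant spots was 4.59 and 4.33 for tropomyosin and 4.46 and 4.21 for troponin T. It was 4.07 and 3.85 for troponin I and 4.07 and 3.74 for troponin C. The counting standard errors were 0.024 to 0.052, so within a section tropomyosin and troponin T stood above troponin I and troponin C by more than counting error, while troponin I and troponin C had about the same ratio in section 1. These ratios were not tested over the sections, since a permutation test cannot reach 0.05 with 2 of them.

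No spot class was free of the other isoforms. The purest slow spots, in which every one of at least 20 myosin UMIs was MYH7 (25 spots in section 1 and 27 in section 2), had TNNT1 shares of 87.1% (85.1 to 88.9) and 85.5% (83.7 to 87.3). Their TNNI1 shares were 84.8% and 82.7%, their TNNC1 shares 82.3% and 80.0% and their TPM3 shares 84.5% and 84.0%. At the other end, spots with at least 10 myosin UMIs and no MYH7 UMI (14 and 28 spots) had TNNT1 shares of 5.13% (2.83 to 8.45) and 7.49% (5.38 to 10.1). TPM3 had the lowest shares there, 4.55% (1.85 to 9.14) and 3.06% (1.41 to 5.73), and TNNC1 had 8.68% and 8.62%. Spots with a count of 0 for MYH7 may still hold MYH7 RNA at this depth, and free RNA or RNA of neighbouring fibres under a spot was not tested.

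Deeper spots had higher slow shares within both classes. In the deepest 25% of MYH7-dominant spots the TNNT1 share was 76.6% and 71.8%, against 62.0% and 61.3% in the shallowest 25%. In the deepest 25% of MYH2/MYH4-dominant spots it was 14.3% and 13.1%, against 7.56% and 7.14% in the shallowest 25%. The other 3 pairs moved in the same direction, with TNNC1 at 12.9% and 12.4% in the deepest and 10.6% and 9.47% in the shallowest 25% of MYH2/MYH4-dominant spots. The part of depth in the class differences was not tested. Within spots of interquartile depth the log2 fold changes were 2.54 for TNNT1 and -1.45 for TNNT3, and depth still differed there, with medians of 1573 and 2099 UMIs in MYH7-dominant spots, against 861 and 1122 in MYH4-poor and 689 and 995 in MYH4-rich spots.

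Across 6 bins of the MYH7 share the slow isoform shares rose slowly at first and steeply at the end. From the lowest to the highest bin the MYH7 share, pooled over the spots of a bin, was 2.85%, 20.3%, 38.6%, 60.8%, 82.2% and 95.2% in section 1. The TNNT1 share over these bins was 6.89%, 9.48%, 14.4%, 28.4%, 57.2% and 81.0% in section 1, and 6.65%, 8.62%, 14.1%, 29.4%, 57.2% and 77.3% in section 2. The TNNC1 share was 7.86%, 9.85%, 12.99%, 24.0%, 50.7% and 75.1% in section 1, and 8.48%, 9.86%, 13.4%, 25.1%, 50.3% and 72.0% in section 2. Each of the 4 pairs climbed at each step in both sections. The TPM3 share began lowest, at 5.33% and 5.77% in the bin under 0.1, and ended at 80.7% and 76.3%. The TNNI1 share began at 9.54% and 8.01% and ended at 79.0% and 75.1%. Median depth rose over the bins too, from 496 and 614.5 UMIs in the lowest to 3185.5 and 3712 in the highest. Spots were sorted by their own myosin counts, so the MYH7 share of shallow spots carries counting error. The part of depth and of this error in the shape of the curves, and in the comparisons drawn from the bins below, was not tested.

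**Figure D2:**
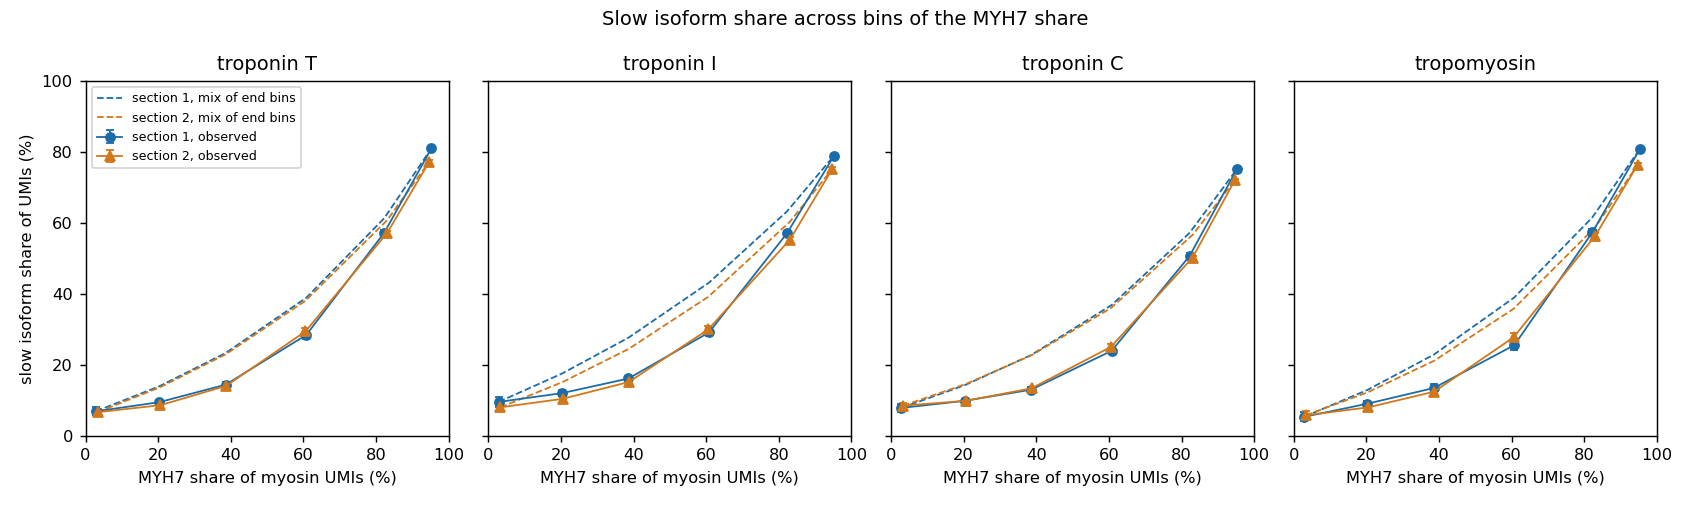
Share of the slow isoform in the UMIs of each pair (y axis, %) against the MYH7 share of myosin UMIs (x axis, %) in 6 bins, over which median depth also rises. Points are sections, error bars exact 95% binomial intervals (mostly smaller than the points), and dashed lines the share given by mixing the end bins. The observed curves lie below the dashed lines in the 4 middle bins of all pairs, as for troponin I of section 1, 29.1% against 43.2% in the bin of 0.5 to under 0.7.

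The MYH7 share at which the slow and fast isoforms had equal UMIs, read by a straight line between neighbouring bins, was well above 50% for all pairs. It was 76.8% and 77.2% for troponin T, 76.8% and 78.4% for troponin I and 77.3% and 78.0% for tropomyosin. Troponin C passed that point last, at 81.7% and 82.8%. Where MYH7 made up 50% of the myosin UMIs, most troponin and tropomyosin UMIs were thus of the fast genes. These points and their order set UMIs of different genes side by side. The capture of different genes can differ, so they do not give the share at which RNA molecules were equal.

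MYH2/MYH4-dominant spots also gave more troponin UMIs for each myosin UMI. Troponin C UMIs per UMI of the 3 myosin genes were 0.932 and 1.02 in MYH7-dominant spots, against 2.06 and 2.17 in MYH2/MYH4-dominant spots. Mixing of the lowest and highest bins in proportion to the MYH7 share, with each bin's own UMIs per myosin UMI, allows for this. The observed slow share was still below that mix in 16 of 16 cases (4 pairs in 4 middle bins) in section 1 and 16 of 16 in section 2, with differences of -14.0 to -2.42 percentage points. In the bin of 0.5 to under 0.7 TNNT1 had 28.4% and 29.4%, against 38.9% and 38.1% in the mix, and TNNC1 24.0% and 25.1%, against 36.9% and 36.0% in the mix. In the bin of 0.7 to under 0.9 the difference from the mix was smaller, as for TPM3 with 57.3% and 56.4%, against 61.6% and 58.8% in the mix. With at least 20 myosin UMIs per spot the observed minus mixed share in the bin of 0.5 to under 0.7 was -13.6 to -10.8 points for the 4 pairs (means of the sections). Smooth muscle marker UMIs were higher in mixed spots, at 836 and 740 CPM, than in MYH2/MYH4-dominant spots, at 467 and 445 CPM. Without the 10% of spots richest in smooth muscle and fibroblast markers it was -11.6 to -8.92 points.

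The 4 pairs moved together from spot to spot. Over spots with at least 10 UMIs in every pair (1258 in section 1 and 1872 in section 2), the correlations between the slow shares of 2 pairs were 0.93 to 0.95 (Pearson's r over spots that share a library, as a description). Within MYH7-dominant spots they were 0.73 to 0.84, within mixed spots 0.58 to 0.71, and within MYH2/MYH4-dominant spots 0.27 to 0.44, where slow counts were sparse. In 87.8% and 88.8% of these spots all 4 pairs were on the same side of 50%. In section 1 all 4 pairs were mostly slow in 533 spots and mostly fast in 572, and in section 2 in 574 and 1088 spots.

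Spots in which the pairs disagreed lay mainly among MYH7-dominant and mixed spots. They made up 17.01% and 19.8% of MYH7-dominant spots and 19.9% and 21.4% of mixed spots, against 0.758% and 0.121% of MYH2/MYH4-dominant spots. In MYH7-dominant spots troponin C was the pair least often mostly slow, in 556 of 682 and 610 of 788 spots, against 604 and 671 for troponin T. Within mixed spots all 4 pairs were mostly fast in 133 of 171 and 192 of 248 spots. Since spots were required to have 10 UMIs in each pair, deeper spots are over-represented, with medians of 2327 and 2360 UMIs.

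The spread between spots was wide within a class. The TNNT1 share of MYH7-dominant spots had a median of 76.5% in section 1, with 10% of spots under 45.4% and 10% above 89.7%. In section 2 its median was 70.8%, with 10% of spots under 43.8% and 10% above 85.9%. In MYH2/MYH4-dominant spots the medians were 9.09% and 8.33%, and 10% of spots were above 21.4% and 20%. The MYH7-dominant class thus overlapped the upper end of the mixed spots, whose medians were 30.1% and 30.4%, with 10% of spots above 51.9% and 51.1%. The part of counting error in the spread of single spots was not tested.

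**Figure D3:**
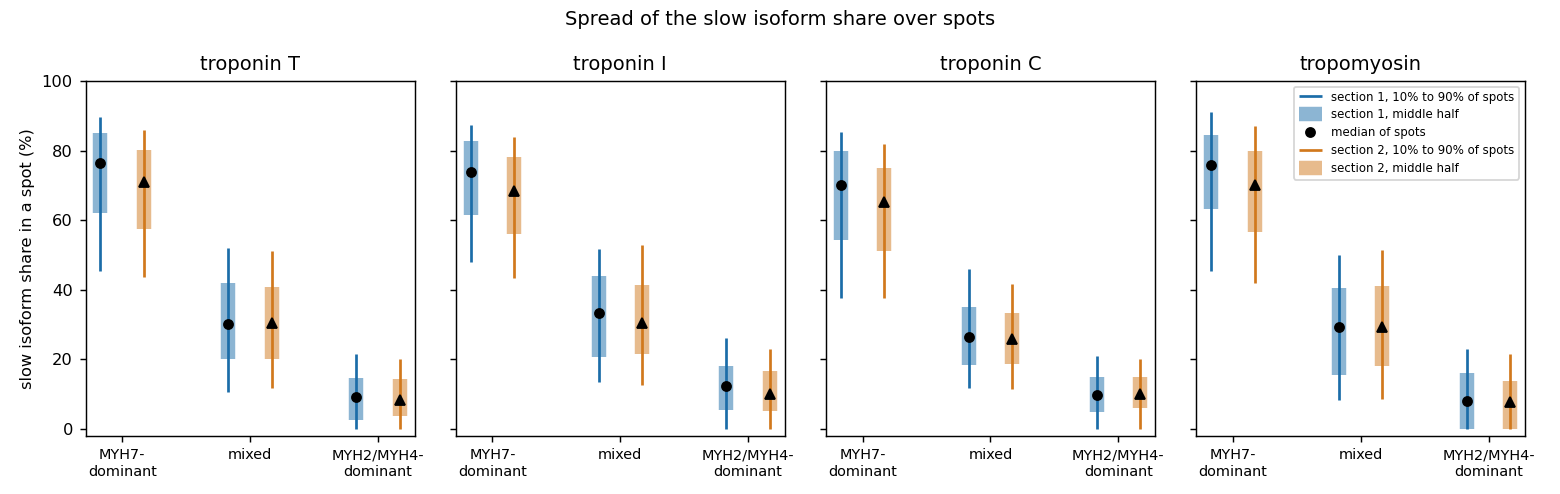
Share of the slow isoform within single spots (y axis, %) for 3 classes of spot (x axis), in spots with at least 5 UMIs of the pair. Symbols are medians over spots, thick bars the middle 50% of spots and thin lines the range between 10% and 90% of spots, with section 1 left of section 2. The troponin T medians are 76.5% and 70.8% in MYH7-dominant, 30.1% and 30.4% in mixed and 9.09% and 8.33% in MYH2/MYH4-dominant spots.

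The troponin complex holds its subunits in equal numbers, and the UMI counts of troponin T and troponin I were close in the 3 main classes. Each UMI marks a 3′ end, so counts were not divided by length, but the capture of different genes can differ, and only changes of a ratio between classes are read here. Total troponin T over total troponin I was 1.00 and 1.01 in MYH7-dominant spots, 1.00 and 0.994 in mixed spots, and 1.06 and 1.02 in MYH2/MYH4-dominant spots. The ratio was higher where RNA was scarce, at 1.23 and 1.29 in unclassed spots and 1.23 and 1.104 in the bin under a MYH7 share of 0.1.

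Troponin C was higher relative to troponin T and troponin I in MYH2/MYH4-dominant than in MYH7-dominant spots. For troponin T this did not hold along the whole range of the MYH7 share or at every depth. Total troponin T over total troponin C was 0.862 and 0.826 in MYH7-dominant spots, against 0.764 and 0.749 in MYH2/MYH4-dominant spots. Total troponin I over total troponin C was 0.862 and 0.814 in MYH7-dominant spots, against 0.722 and 0.736 in MYH2/MYH4-dominant spots. Both ratios were higher in MYH7-dominant spots of each section, by factors of 1.127 and 1.103 for troponin T and of 1.19 and 1.11 for troponin I. Troponin T over troponin C was, however, 0.875 and 0.805 in the bin under a MYH7 share of 0.1 and 0.925 and 0.944 in the mostly fast unclassed spots, while troponin I over troponin C was 0.713 and 0.729 in that bin. As a share of all UMIs, troponin C made up 2.15% and 2.25% in MYH7-dominant spots, against 2.78% and 2.87% in MYH2/MYH4-dominant spots, and troponin T made up 1.85% and 1.86%, against 2.12% and 2.15%. Troponin I made up 1.85% and 1.83% in MYH7-dominant spots, against 2.004% and 2.11% in MYH2/MYH4-dominant spots, so its totals differed least.

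Among the isoforms of 1 kind, the ratios also changed with the class. TNNT1 over TNNC1 was 0.940 and 0.906 in MYH7-dominant spots, against 0.783 and 0.715 in MYH2/MYH4-dominant spots. TPM3 over TNNC1 was 0.508 and 0.480 in MYH7-dominant spots, against 0.388 and 0.351 in MYH2/MYH4-dominant spots. The slow counts of fast spots thus held relatively more TNNC1 than those of slow spots. TNNI1 over TNNC1 differed less, at 0.924 and 0.864 in MYH7-dominant spots, against 0.886 and 0.804 in MYH2/MYH4-dominant spots, where the sections of the classes overlapped.

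Between the pooled classes the fast isoforms kept steadier ratios, though not along the bins. TNNI2 over TNNC2 was 0.731 and 0.726 in MYH7-dominant spots, against 0.701 and 0.727 in MYH2/MYH4-dominant spots, and the classes overlapped. TNNT3 over TNNC2 was 0.696 and 0.687 in MYH7-dominant spots, against 0.762 and 0.753 in MYH2/MYH4-dominant spots. TPM1 over TNNC2 was 0.373 and 0.378 in MYH7-dominant spots, against 0.409 and 0.417 in MYH2/MYH4-dominant spots. Along the bins, TNNT3 over TNNC2 was highest where MYH7 was scarcest, at 0.884 and 0.821 under a MYH7 share of 0.1 and 0.669 and 0.684 at 0.9 or more. TPM1 over TNNC2 was 0.458 and 0.480 in the former bin and 0.368 and 0.383 in the latter. In the shallow unclassed spots TNNT3 over TNNC2 reached 0.942 and 0.967, and TPM1 over TNNC2 0.526 and 0.539. Both ratios thus also moved with depth, whose part was not tested.

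**Figure D4:**
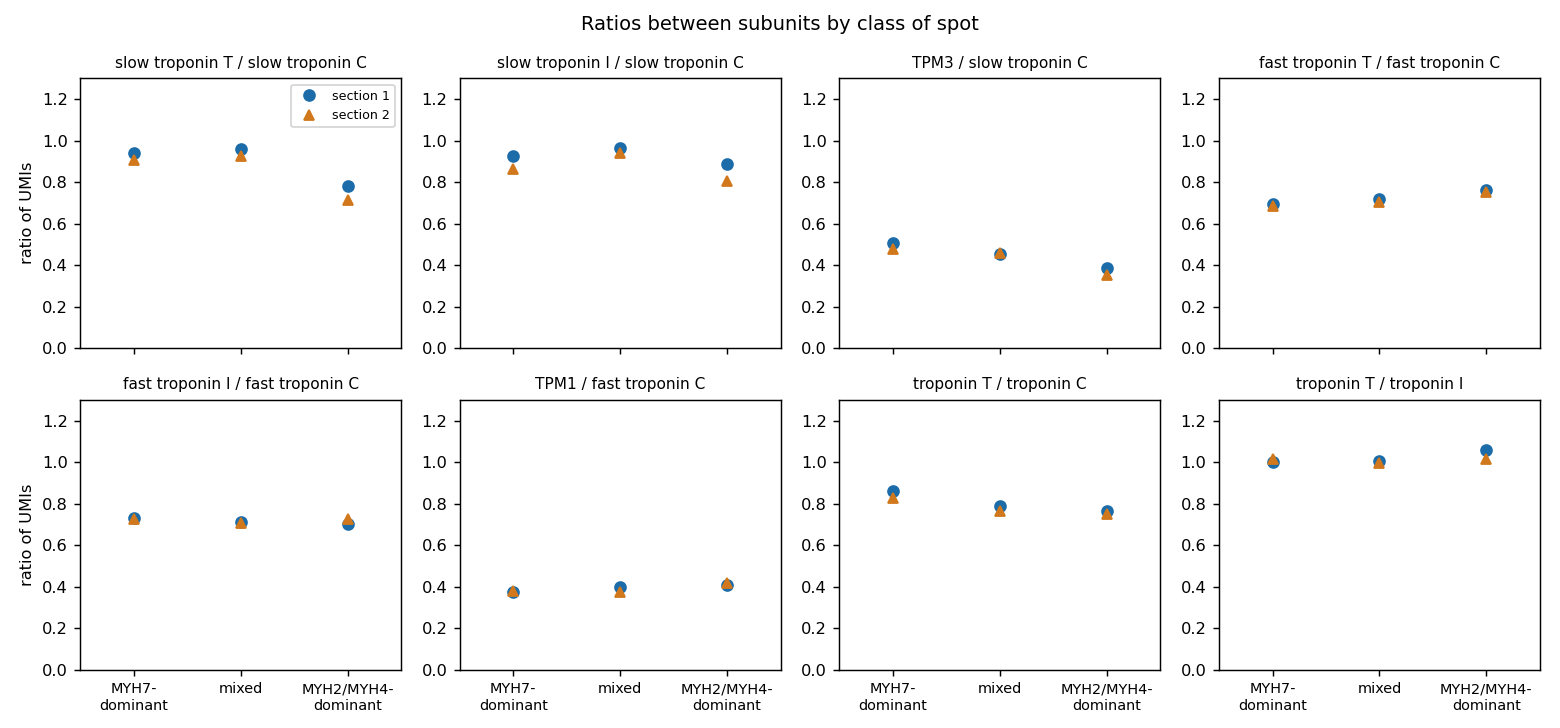
Ratios of UMIs between subunits (y axis, linear from 0) in 3 classes of spot (x axis). Circles are section 1 and triangles section 2. TNNT1 over TNNC1 (slow troponin T over slow troponin C) is 0.940 and 0.906 in MYH7-dominant spots and 0.783 and 0.715 in MYH2/MYH4-dominant spots, while troponin T over troponin I stays between 0.994 and 1.06.

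TPM2, the tropomyosin made in both kinds of fibre, changed little beside its relatives. It had 4167 and 4120 CPM in MYH7-dominant spots, against 4919 and 5197 CPM in MYH2/MYH4-dominant spots (log2 fold change -0.29 ± 0.043 SE, edgeR adjusted p = 9.87e-10). Together with TPM2, tropomyosin over troponin T was 0.764 and 0.758 in MYH7-dominant spots, against 0.764 and 0.789 in MYH2/MYH4-dominant spots. TPM2 had more UMIs than TPM1 in MYH7-dominant spots and more than TPM3 in MYH2/MYH4-dominant spots, in both sections.

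The MYH2/MYH4-dominant spots were split, on the part of MYH4 in their MYH2 and MYH4 counts, into MYH4-rich (300 and 489 spots, upper tertile), middle (206 and 327) and MYH4-poor spots (391 and 508, with no MYH4 UMI). This asks whether the members also differ with the MYH4 share of fast spots. The upper tertile began at 0.214 and 0.2, and MYH4-rich spots still held more MYH2 (6158 and 6155 CPM) than MYH4 (5361 and 4383 CPM). MYH4-poor spots averaged only 8.08 and 10.4 MYH2 UMIs, so MYH4 RNA may have been missed there. Type IIA and IIB fibres were therefore not separated. The members differed far less here: no member passed the edgeR test (adjusted p 0.14 to 0.82), although 6 of 8 had an unadjusted p under 0.05. The share of all genes under that unadjusted limit was not counted, so the 6 cannot be set against it. DESeq2 called 1 member, TNNT1. Over all genes edgeR called 2.39% in either direction, and DESeq2 called 86 of the 539 genes to which it gave an adjusted p. TNNT1 had 2242 and 2048 CPM in MYH4-rich spots, against 2522 and 2391 CPM in MYH4-poor spots (log2 fold change -0.17 ± 0.062 SE, edgeR adjusted p = 0.14). TPM1 had 10678 and 11353 CPM in MYH4-rich spots, against 9933 and 10446 CPM in MYH4-poor spots (log2 fold change 0.14 ± 0.049 SE, edgeR adjusted p = 0.15). The sections did not overlap for 7 of 8 members, the 4 slow isoforms on the lower and 3 fast isoforms on the higher side in MYH4-rich spots, where 37.4% of all genes tested had sections that did not overlap. Scaled by the number of spots the 4 fast isoforms turned to the lower side. Values were -0.11 for TNNT3, -0.16 for TNNI2, -0.14 for TNNC2 and -0.094 for TPM1, against a median of -0.24 over all genes. On that scale 6 of 8 members and 205 of 4222 genes passed. At interquartile depth 2 members and 73 of 3095 genes passed. TNNI2 overlapped, with 17501 and 18868 CPM in MYH4-rich spots, against 16930 and 18183 CPM in MYH4-poor spots.

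The MYH7 share itself differed between these classes, at 22.5% and 23.7% in MYH4-rich spots, against 30.4% and 29.8% in MYH4-poor spots. Median depth differed too, at 599.5 and 799 UMIs in MYH4-rich spots, against 791 and 921.5 in MYH4-poor spots. Their part in the small shifts of the members was not tested. The TNNT1 share of troponin T was 9.95% and 9.39% in MYH4-rich spots, against 12.01% and 11.2% in MYH4-poor spots, and the TPM3 share of the tropomyosin pair was 9.45% and 7.79%, against 10.6% and 9.87%. Without the 10% of spots richest in smooth muscle and fibroblast markers, 98 of 3539 genes passed, 3 members among them. These were TNNT1 (log2 fold change -0.22, edgeR adjusted p = 0.015), TNNT3 (0.15, edgeR adjusted p = 0.010) and TPM1 (0.17, edgeR adjusted p = 0.014).

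**Figure D5:**
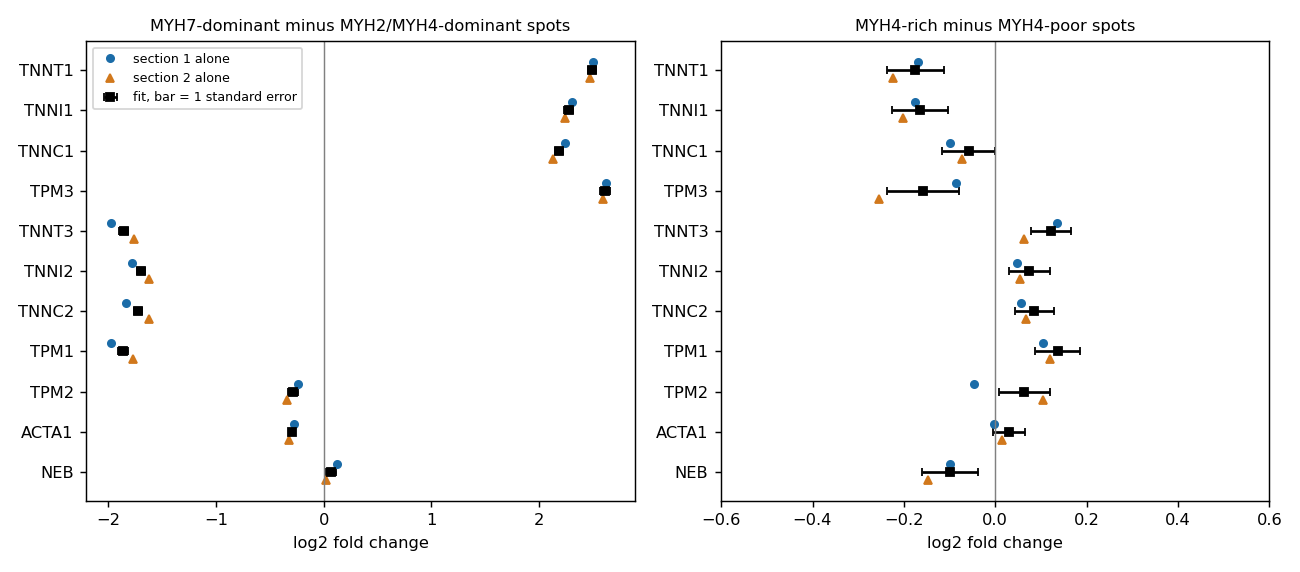
Log2 fold changes (x axis) of the 8 members and of TPM2, ACTA1 and NEB (y axis) for MYH7-dominant minus MYH2/MYH4-dominant spots (left) and MYH4-rich minus MYH4-poor spots (right, on a wider scale). Squares are the fit with bars of 1 standard error, circles section 1 alone and triangles section 2 alone. The left panel runs from -1.97 to 2.62, while in the right panel no member passed the test and fitted values stay between -0.17 and 0.14.

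Of the neighbouring troponin genes, TNNI3 and TNNT2, the cardiac isoforms, had few UMIs. TNNI3, singled out after its values were seen, had 55 and 87 UMIs in MYH7-dominant spots, against 1 and 1 in MYH2/MYH4-dominant spots. Its CPM ratio between these classes was 23.2 (exact 95% counting interval 3.99 to 932) in section 1 and 50.1 (8.76 to 2003) in section 2. At 25.8 and 30.0 CPM in MYH7-dominant spots it was still rare beside TNNT1, which lies 1243 bases away. Both genes lie on the minus strand, and these bases separate the 5′ end of TNNT1 from the 3′ end of TNNI3. Whether reads of other troponin genes were counted as TNNI3 was not tested. TNNT2 had 3 and 8 UMIs in MYH7-dominant spots, against 0 and 1 in MYH2/MYH4-dominant spots, although its neighbour TNNI1 was abundant there. Of 6 heart markers listed 3 were present, these 2 and NPPB, which had no UMI in any class.

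Of 18 other genes of the thin filament, 16 were present and 12 tested, and 4 (TNNI3 among them) were higher, 5 lower and 3 not called in MYH7-dominant spots (median log2 fold change -0.10, against -0.0098 over all genes). LMOD2, a leiomodin that lengthens thin filaments, and CFL2, muscle cofilin, which severs actin, were higher, with log2 fold changes of 0.91 ± 0.066 SE (edgeR adjusted p = 5.53e-34) and 0.93 ± 0.086 SE (edgeR adjusted p = 1.36e-22). TMOD4, a tropomodulin that caps the pointed end of the filament, was lower, at -0.69 ± 0.068 SE (edgeR adjusted p = 2.11e-20). ACTA1, skeletal actin, was lower by a small amount (log2 fold change -0.29, edgeR adjusted p = 7.50e-20), and NEB, nebulin, did not pass (0.07 ± 0.045 SE, edgeR adjusted p = 0.25). Scaled by the number of spots, ACTA1, TPM2 and TMOD4 turned to log2 fold changes of 1.19, 1.20 and 0.79, below the median of all genes of 1.47. In MYH4-rich against MYH4-poor spots 0 of the 12 passed the edgeR test, with 2 at an unadjusted p under 0.05, a limit for which the share of all genes was not counted.

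Of 16 genes that handle calcium, 13 were present and 11 tested, and 2 were higher and 9 lower in MYH7-dominant spots (median log2 fold change -0.52). The calcium pumps of the sarcoplasmic reticulum split like the troponins: ATP2A2, the slow and cardiac pump, had a log2 fold change of 2.37 ± 0.059 SE (edgeR adjusted p = 4.12e-142) and ATP2A1, the fast pump, of -1.76 ± 0.052 SE (edgeR adjusted p = 2.06e-118). SLN, sarcolipin, an inhibitor of these pumps, had -1.34 ± 0.043 SE (edgeR adjusted p = 3.57e-109), and 0.14 when scaled by the number of spots. In MYH4-rich spots 2 of the 11 were higher and 1 lower than in MYH4-poor spots. CASQ1, a calcium store protein, had a log2 fold change of 0.27 ± 0.064 SE (edgeR adjusted p = 0.0033), and ATP2A2 had -0.44 ± 0.12 SE (edgeR adjusted p = 0.012). The value for ATP2A2 was -0.14 in section 1 alone and -0.69 in section 2 alone. On the scale of spots CASQ1 had 0.034 (edgeR adjusted p = 0.86), against a median of -0.24 over all genes.

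The genes whose levels were most like those of the members over the bins were mostly other members or myosin light chains. Likeness was Pearson's r of log2(CPM + 1), centred within sections, over 12 sums (6 bins in 2 sections) among 701 genes with a mean of at least 100 CPM, and these sums share libraries and the same order of depth. TNNT1 was nearest to MYL2, the slow regulatory light chain of myosin (r = 0.999), then to TNNI1 and MYL12A. TNNI1 was nearest to TNNT1, the mitochondrial oxidase gene COX1 and CA3, a carbonic anhydrase of slow fibres. TNNC1 was nearest to TPM3 (0.998), CA3 and TNNI1, and TPM3 to TNNC1, TNNI1 and MYL2. TNNI2 and TNNC2 were each other's nearest gene (r = 0.9996), as were TNNT3 and TPM1 (0.999). TNNT3 was next nearest to MYBPC2, the fast myosin-binding protein C, and MYLPF, the fast regulatory light chain, and TPM1 to MYLPF and MYL1, a fast essential light chain. The linked pair TNNI2 and TNNT3 had r = 0.997.

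Other tissue under the spots differed between the classes. Fibroblast and matrix markers summed to 593 and 567 CPM in MYH7-dominant spots, against 1546 and 1277 CPM in MYH2/MYH4-dominant spots (7 of 7 genes present, none at 0), and smooth muscle markers to 284 and 300 CPM, against 467 and 445 CPM (6 of 6 present, none at 0). Adipocyte markers summed to 103 and 99.0 CPM in MYH7-dominant spots, against 252 and 175 CPM in MYH2/MYH4-dominant spots (4 of 4 present, LEP at 0), and macrophage markers to 48.7 and 57.3 CPM, against 112 and 104 CPM (4 of 4 present, none at 0), and their part in the results was not tested. Endothelial markers were at 128 and 128 CPM in MYH7-dominant spots, against 139 and 123 CPM in MYH2/MYH4-dominant spots. Without the 10% of spots richest in fibroblast and smooth muscle markers all 8 members kept their call between MYH7-dominant and MYH2/MYH4-dominant spots, and the differences in slow isoform share moved by less than the spread between sections.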

How the data were processed

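Raw UMI counts per gene and spot were deposited by the authors as filtered matrices made with Space Ranger 1.1 on a custom Sscrofa11.1 reference. The authors added earlier gene models of MYH2 and MYH4 to it and left out chromosome Y. The annotation release differs between the labels (100) and the methods (102). The authors also removed spots by hand and used images, which were not used here. Spots with over 25% mitochondrial UMIs or in the lowest 2% of UMIs were dropped. Genes found in under 15 spots of a section, haemoglobins and the 3 myosin genes were left out of the tests.

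Spots are not replicates. UMIs were summed over 5 classes in 2 sections, and these 10 sums were tested with edgeR 4.0.16 (quasi-likelihood, TMM, filterByExpr with a minimum count of 10, section as a block, Benjamini-Hochberg adjusted p under 0.05) in R 4.3.3. DESeq2 1.42.0 was an alternative, and others changed the filter, the myosin minimum, the depth, the scaling and the block or left out a section. p-values reflect only how far such sums vary, which may be technical. With 2 sections no permutation test can reach 0.05. Intervals are exact 95% binomial and cover counting error only. On simulated counts for 4222 genes, 75% of 200 genes changed by a log2 fold change of 1 were recovered, with 7 false calls. These counts were drawn with the spread of the fit itself and no other difference between classes. They check the running of the test and give no error rate over pigs. The 8 members are all named. Of each list of other genes, the 3 with the lowest p and TPM2, ACTA1 and NEB are named, while TNNI3 and TNNT2 were singled out after their values were seen. A result that this rule would name is not reported here. Members and lists were chosen with earlier results of these data known.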

Additional observations from a re-analysis of the deposited data

Results flagged for a closer look

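Spots that were left out of the comparisons because they had under 5 myosin UMIs still held members: 12613 UMIs of the 8 genes in section 1 and 11199 in section 2, flagged as a signal in data outside the main measurement. Their isoforms were mostly fast, with TNNT1 at 9.83% and 7.78% of troponin T and TPM3 at 7.70% and 5.44% of the tropomyosin pair. Their median depth was 219 and 254.5 UMIs.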

How the results depend on the processing

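Between MYH7-dominant and MYH2/MYH4-dominant spots all 8 members kept their direction under every alternative run, and their call under every alternative that gave a test (1 section alone gives values with no test). Over all genes the 1281 calls became 630 with DESeq2, 718 with at least 20 myosin UMIs, 621 in spots of interquartile depth and 3974 when scaled by the number of spots, of which 3945 were higher and 29 lower. Between MYH4-rich and MYH4-poor spots the 101 calls became 49 with no filter on low counts, 42 with at least 20 myosin UMIs and 205 when scaled by spots. Without the replicate block, which pairs classes of the same section, they became 49. Of the members 0 passed there in edgeR, against 1 with DESeq2 (TNNT1), 6 when scaled by spots, 2 in spots of interquartile depth (TNNT1 and TNNI1) and 3 without the spots richest in other tissue. Over all genes these alternatives called, in the same order, 86 of 539, 205 of 4222, 73 of 3095 and 98 of 3539. Scaled by spots, TNNT3, TNNI2, TNNC2 and TPM1 turned to log2 fold changes of -0.11, -0.16, -0.14 and -0.094, against a median of -0.24 over all genes. In spots of interquartile depth the slow share differed between MYH7-dominant and MYH2/MYH4-dominant spots by 54.2 points for troponin T, 52.1 for troponin I, 48.5 for troponin C and 54.8 for tropomyosin, against 60.6, 56.9, 54.3 and 61.2 in all spots. The troponin T share stood at -11.3 points from the mix with at least 20 myosin UMIs, against -9.56. The factor for troponin T over troponin C, 1.12 in all classed spots, was 1.15 with at least 10 and 1.22 with at least 20 myosin UMIs and 1.14 at interquartile depth, and that for tropomyosin over troponin C, 1.11, was 1.22 with at least 20. The cause of these shifts was not tested.

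Only 2 sections from 1 slide were measured, so sections, animals and capture areas cannot be told apart. Depth limits the rare isoform most, since MYH2/MYH4-dominant spots held few slow UMIs each.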
